A study of Homo sapiens with 4 samples.

Results

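The genes described here are those of polyamine metabolism, taken by name from a list of 10 (ODC1, SRM, SMS, AMD1, OAZ1, OAZ2, AZIN1, SAT1, PAOX and SMOX). A row with 1 of these names was found for 9 of the 10 among the 25122 genes of the deposited table. OAZ1 had no row by symbol or by gene ID and was not analysed here. The cells were Jurkat, a human T-ALL (T-cell acute lymphoblastic leukaemia) cell line in long use, and all 4 libraries carry the genotype label WT. The 2 shcontrol libraries came from cells carrying a control short hairpin RNA and the 2 shBDH1 libraries from cells carrying a short hairpin RNA against BDH1, a mitochondrial enzyme of ketone body metabolism. The labels give neither the hairpin sequences, nor how many hairpins or clones were used, nor the time after their delivery, and they do not say whether the libraries of a group were separate cultures. The p-values below therefore measure the spread between these libraries alone, largely as pooled over genes of like level, and that spread may be technical. The design text of the series is about MYC and NKX3.1 as genes acting downstream of BDH1, and it speaks of BDH1-depleted cells given MYC back, which were not analysed here.

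Polyamines are small, positively charged molecules that bind nucleic acids and are needed for cell growth and translation. Ornithine decarboxylase makes putrescine, and the aminopropyl groups that turn putrescine into spermidine and then spermine are donated by S-adenosylmethionine after its decarboxylation by AMD1. Antizymes bind ornithine decarboxylase and send it to the proteasome, antizyme inhibitors release it, and an acetyltransferase with its oxidase returns spermine and spermidine to putrescine. Genes of polyamine synthesis are well known as targets of MYC, and demand for polyamines is high in dividing leukaemia cells.

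Transcript levels fell for SRM, AMD1 and SMOX and rose for SMS and OAZ2 in shBDH1, while ODC1, AZIN1 and SAT1 did not pass the test. SRM, the spermidine synthase, showed the greatest change of the tested members, and fell by 63.1%. PAOX lay just under the expression minimum of the test. Of the 8 members tested, 3 were called lower (20.8% of all genes tested) and 2 higher (20.3% of all genes tested), at a limma adjusted p under 0.05. Together 5 of 8 were called where 41.1% of all 19301 genes tested were, and the median log2 fold change was -0.13 against -0.01 over all genes tested. For 6 of the 8 no shBDH1 library fell within the shcontrol range or the reverse (groups not overlapping), against 69.0% of all genes tested. The count without overlap is near its background, and over 8 genes that went in both directions the counts of calls are a description, with nothing read from them as particular to these genes. In bulk RNA, fewer cells that express a gene and less of its RNA per cell cannot be told apart.

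**Figure D1:**
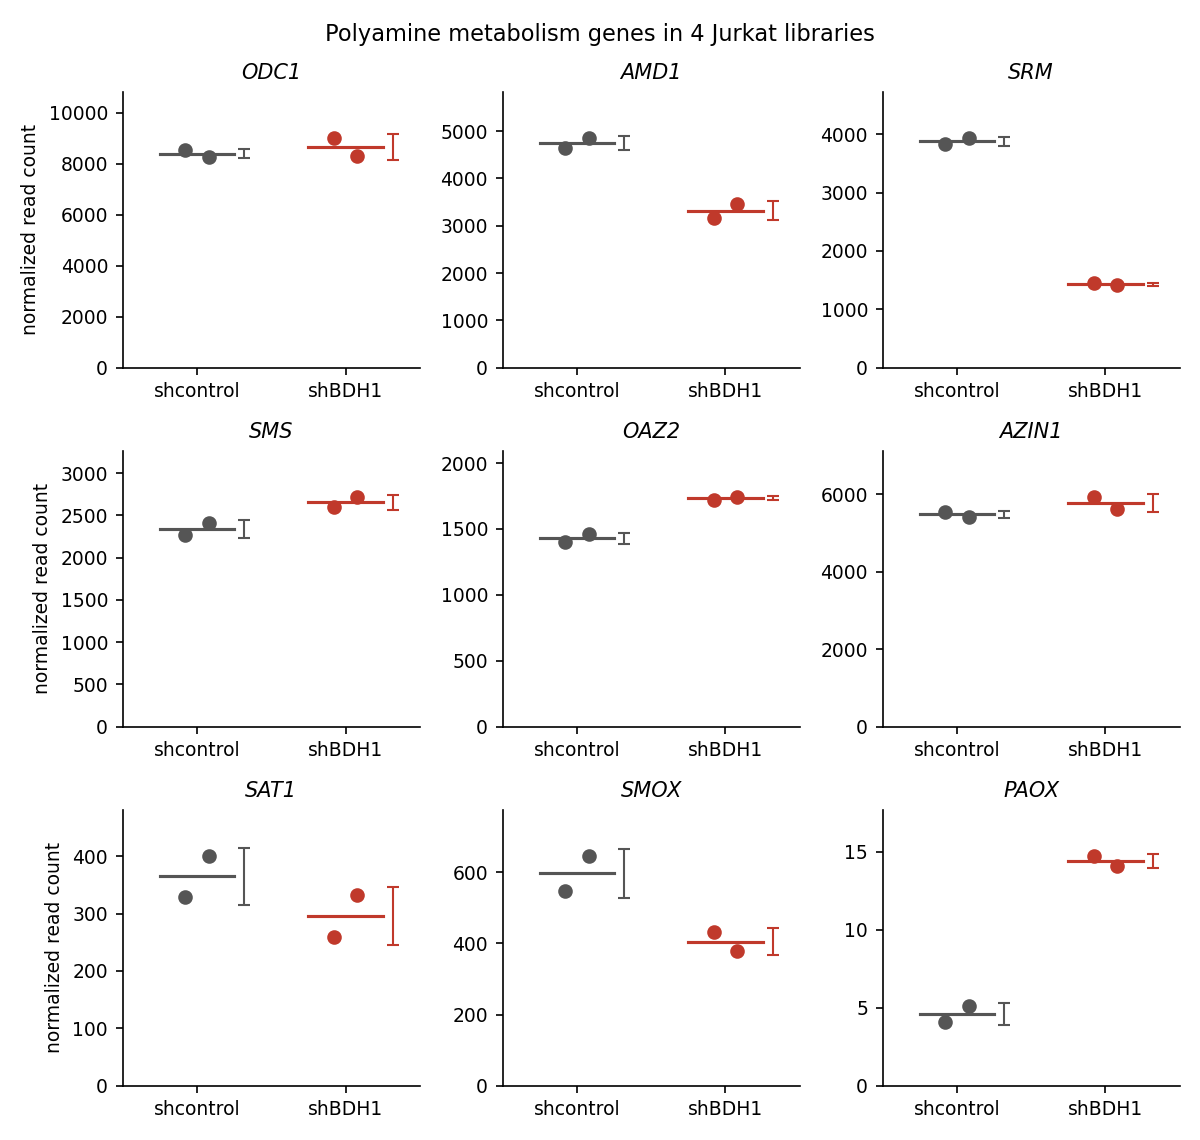
Normalized read count (y axis, from 0, a separate scale per gene) of each of the 9 measured members in the shcontrol and shBDH1 libraries (points), with the group mean (line) and SD (bar, n = 2). SRM and AMD1 lay lower in both shBDH1 libraries, with SRM between 1414 and 1449 against 3826 and 3935, whereas the ODC1 libraries overlapped.

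The 4 enzymes of synthesis went 3 ways. SRM (ENSG00000116649, chromosome 1 from 11054584 to 11060024, minus strand, hg38) transfers an aminopropyl group to putrescine to make spermidine. Its normalized counts stood at 3826 and 3935 in shcontrol but at 1449 and 1414 in shBDH1. Both shBDH1 libraries were low and near each other, and no library of 1 group came near the other group. The means were 3880 ± 77.1 and 1431 ± 24.6 (SD, n = 2 each), which is -1.44 as a log2 fold change (SE 0.06, limma adjusted p = 2.5e-17) with a 95% interval of -1.56 to -1.32. Among 4020 genes called lower, 115 had a greater fall than SRM. In limma without the intensity trend the adjusted p of SRM was 0.0287.

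AMD1 (ENSG00000123505, chromosome 6 from 110874770 to 110895713, plus strand) decarboxylates S-adenosylmethionine and so supplies the aminopropyl donor for both SRM and SMS. It had 4643 and 4854 normalized counts in shcontrol and 3170 and 3460 in shBDH1. The groups were well apart, and the spread inside each group was small beside the gap. The means of 4748 ± 149 and 3315 ± 205 (SD, n = 2 each) differed by -0.52 on the log2 scale (SE 0.05, 95% interval -0.63 to -0.41, limma adjusted p = 4.5e-09), so AMD1 fell by 30.2%. Among the genes called lower, 1272 had a greater fall than AMD1. GENCODE lists processed pseudogenes of both AMD1 and SRM, none with a row here, and whether reads were shared with them was not tested.

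ODC1 (ENSG00000115758, chromosome 2 from 10439968 to 10448504, minus strand) encodes ornithine decarboxylase, the first and usually limiting enzyme of the pathway. Its 4 libraries held 8540 and 8271 normalized counts in shcontrol and 9019 and 8310 in shBDH1. The shBDH1 library of replicate 2 lay between the shcontrol libraries, so the groups overlapped. The log2 fold change was 0.04 (limma adjusted p = 0.46, SE 0.04), and its 95% interval from -0.05 to 0.13 does not reach the fall measured for SRM or AMD1.

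SMS (ENSG00000102172, chromosome X from 21940573 to 21994835, plus strand) adds the next aminopropyl group and makes spermine from spermidine. Its normalized counts stood at 2264 and 2411 in shcontrol and at 2593 and 2717 in shBDH1, low in both control libraries and higher in both knockdown libraries. The means of 2338 ± 104 and 2655 ± 88.0 (SD, n = 2 each) differed by 0.18 on the log2 scale (SE 0.06, 95% interval 0.06 to 0.31, limma adjusted p = 0.015). This rise of 13.6% rests on few libraries: without shcontrol replicate 1 the log2 fold change was 0.14 (limma adjusted p = 0.181) and without shBDH1 replicate 2 it was 0.15 (limma adjusted p = 0.104). It was not called in limma without the intensity trend either (adjusted p = 0.174).

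**Figure D2:**
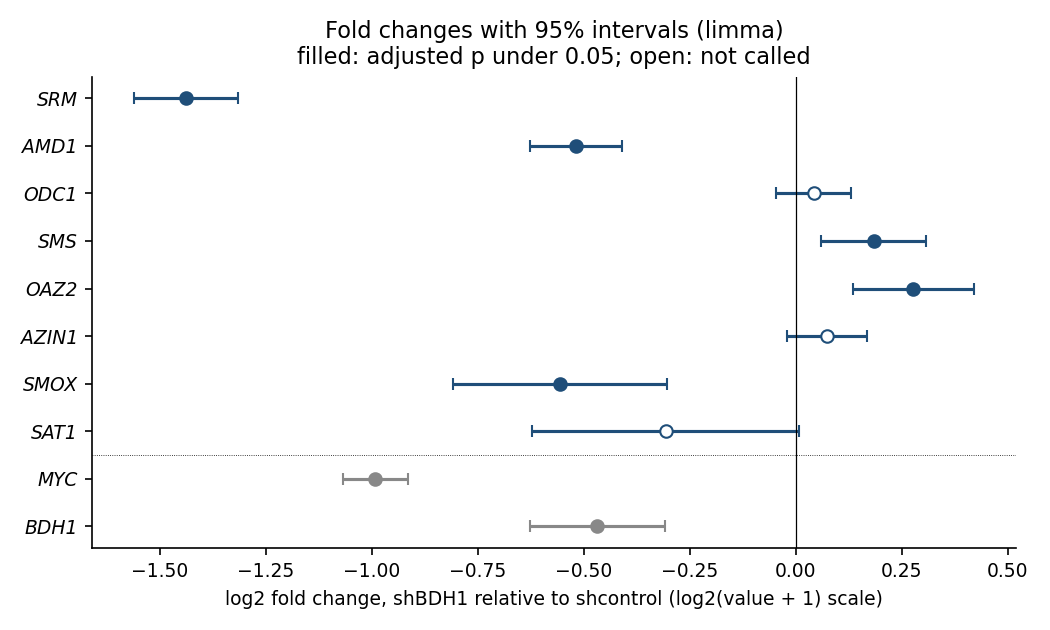
Log2 fold change of shBDH1 relative to shcontrol on the log2(value + 1) scale (x axis) with its 95% interval (bars) for the 8 tested members (blue) and for MYC and BDH1 (grey), filled where the limma adjusted p was under 0.05. SRM lies farthest from 0 at -1.44, beyond MYC at -0.99, and the interval of ODC1 spans 0.

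The promoter sequences of SRM and ODC1 are shown because, of the 6 members whose promoter windows were searched, these 2 hold the E-box CACGTG. MYC with its partner MAX is known to bind these letters. Windows ran from 250 bases before to 50 after a gene's start in RefSeq (GRCh38.p14). Those of 6 of the 9 measured members were searched, some with several starts. No window of AZIN1, PAOX or SMOX was searched, so whether their promoters hold the motif was not tested. The motif reads the same on both strands. Each window is printed 5′ to 3′ along the gene's strand, with CACGTG in capitals: SRM at chr1:11059969-11060268 (minus strand) and the downstream of 2 ODC1 starts at chr2:10447963-10448262 (minus strand).
SRM: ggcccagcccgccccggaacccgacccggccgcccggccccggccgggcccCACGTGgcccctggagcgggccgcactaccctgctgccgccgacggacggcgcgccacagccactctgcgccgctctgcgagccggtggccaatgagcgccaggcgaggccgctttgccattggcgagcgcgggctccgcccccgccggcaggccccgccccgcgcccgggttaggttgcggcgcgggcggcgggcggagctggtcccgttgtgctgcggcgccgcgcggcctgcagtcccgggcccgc
ODC1: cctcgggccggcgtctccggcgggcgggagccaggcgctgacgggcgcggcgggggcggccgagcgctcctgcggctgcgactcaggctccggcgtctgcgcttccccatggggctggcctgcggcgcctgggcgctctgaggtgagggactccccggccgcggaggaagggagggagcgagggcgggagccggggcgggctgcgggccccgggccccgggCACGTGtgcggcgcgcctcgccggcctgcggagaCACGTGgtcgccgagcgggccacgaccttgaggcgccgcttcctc

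The SRM window held 1 CACGTG, whose first base lay at -199 from the start, counting the start as 0. The ODC1 window held 2, at -29 and 5, and the window of the other ODC1 start at chr2:10448278-10448577 held none. The windows of AMD1, SMS, OAZ2 and SAT1 had no such letters. Of the 35116 windows searched, 2548 (7.26%) held at least 1 CACGTG. Their median GC content was 58.7%, against 82.0% in the SRM window and 80.7% in the ODC1 window with the motif. That share was not matched for GC content and counts windows rather than genes, so it is not a like background. MYC itself went from 14683 and 14804 normalized counts in shcontrol to 7453 and 7368 in shBDH1 (log2 fold change -0.99, SE 0.04, limma adjusted p = 2.7e-18). SRM, with 1 motif, and AMD1, with none in its windows, fell. ODC1, with 2 in the window of 1 start and none in the other, was not called. Whether MYC acted on any of these genes was not tested. A match of letters is a description and not a measured binding site.

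Among the regulators of ornithine decarboxylase protein, the antizyme OAZ2 rose. OAZ2 (ENSG00000180304, chromosome 15 from 64687573 to 64703281, minus strand) had 1400 and 1458 normalized counts in shcontrol and 1721 and 1743 in shBDH1. Both shBDH1 libraries were higher than both controls, and they lay close together. The means of 1429 ± 41.7 and 1732 ± 15.4 (SD, n = 2 each) gave a log2 fold change of 0.28 (SE 0.07, 95% interval 0.13 to 0.42, limma adjusted p = 0.0019), a rise of 21.2%. The call was lost in limma when the intensity trend was left out (adjusted p = 0.0739). The antisense transcript AC100830.3 overlaps its exons by 554 bases and held 23.6 to 43.2 normalized counts per library, and AC100830.1, which shares no exon base with it, rose by 0.41 on the log2 scale. Since the strand setting of the counting is not given in the sources used here, the part of shared reads was not tested.

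An antizyme transcript is not read in 1 frame: ribosomes stop at an early stop codon unless they slip forward by a single base, which high polyamine levels are known to promote. The slip site of OAZ2 is shown because a transcript count such as this does not tell how often the full antizyme is made. GENCODE 29 leaves out 1 base of OAZ2, a T at position 64691515 of chromosome 15, which is, in the sense of the transcript, the first base of the stop codon TGA that follows 32 codons in the starting frame. The sequence around it at chr15:64691501-64691530 (GRCh38, minus strand, 5′ to 3′) is printed with the last codon before the stop and the stop codon in capitals.
OAZ2: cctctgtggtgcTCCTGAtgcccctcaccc

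SAT1 (ENSG00000130066, chromosome X from 23783173 to 23786226, plus strand) acetylates spermidine and spermine and so marks them for export or oxidation. It had 330 and 401 normalized counts in shcontrol and 259 and 332 in shBDH1. The higher shBDH1 library lay above the lower control library, so the groups overlapped. Its log2 fold change of -0.31 had a 95% interval from -0.62 to 0.01 (SE 0.15, limma adjusted p = 0.11). SAT1 was called lower without shcontrol replicate 1 (-0.45, limma adjusted p = 0.0463) or without shBDH1 replicate 2 (-0.48, limma adjusted p = 0.0497), and in no other of the 17 alternatives.

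SMOX (ENSG00000088826, chromosome 20 from 4120980 to 4187747, plus strand) oxidizes spermine directly to spermidine and releases hydrogen peroxide. Its normalized counts stood at 548 and 646 in shcontrol but at 431 and 379 in shBDH1. Both knockdown libraries were lower than either control, with a wide spread in each group. The means of 597 ± 69.0 and 405 ± 37.0 (SD, n = 2 each) gave a log2 fold change of -0.56 (SE 0.12, 95% interval -0.81 to -0.30, limma adjusted p = 5.2e-04), so SMOX fell by 32.1%. The call was lost in limma without the intensity trend (adjusted p = 0.0776).

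PAOX (ENSG00000148832, chromosome 10 from 133379234 to 133391694, plus strand), the peroxisomal oxidase of acetylated polyamines, was barely present. It had 4.11 and 5.11 normalized counts in shcontrol and 14.7 and 14.1 in shBDH1, which were 4, 5, 15 and 14 reads. Both shBDH1 libraries lay above both controls. Its mean of 9.51 was under the minimum of 10, so it was not part of the reported test. With no minimum, its log2 fold change of 1.46 had a limma adjusted p = 0.142, and edgeR's quasi-likelihood test on whole reads gave 1.61 with an adjusted p = 0.226. PAOX shares 158 exon bases with AL360181.3 on the same strand, which has no row.

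AZIN1 (ENSG00000155096, chromosome 8 from 102826357 to 102893864, minus strand) encodes an antizyme inhibitor, a relative of ornithine decarboxylase without its activity that draws antizymes away from the enzyme. Its libraries held 5540 and 5414 normalized counts in shcontrol and 5926 and 5603 in shBDH1. Both shBDH1 libraries were above the controls, by a margin smaller than their own spread. Its log2 fold change of 0.07 had a 95% interval from -0.02 to 0.17 (SE 0.05, limma adjusted p = 0.22), and of 17 alternatives only upper-quartile scaling called it (0.12, limma adjusted p = 0.0446). AZIN1-AS1, on the opposite strand with 344 shared exon bases, held 230 to 320 normalized counts per library and was not called (log2 fold change -0.29, limma adjusted p = 0.15).

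Levels of different genes were compared per kilobase of exon, as normalized counts divided by the length of all annotated exons joined. In shcontrol the order was ODC1 (2832 ± 64.0 per kilobase, SD, n = 2), SRM (2044 ± 40.6), SMS (1082 ± 48.1), AZIN1 (852 ± 13.8), AMD1 (676 ± 21.2), SMOX (203 ± 23.4), OAZ2 (186 ± 5.4), SAT1 (146 ± 20.1) and PAOX (2.0 ± 0.3). By this length SMOX and OAZ2 were within their spread of each other, and every other pair of neighbours was farther apart than that. In shBDH1 ODC1 stayed the highest at 2919 ± 169 per kilobase, and SRM, at 754 ± 13.0, came after SMS (1229 ± 40.7) and AZIN1 (897 ± 35.5). These levels depend on the annotation: OAZ2 has 7671 exon bases largely from a transcript that retains an intron, and by its longest coding transcript of 1934 bases its shcontrol level was 739 ± 21.5 per kilobase, above SAT1 and SMOX. By the longest transcript SAT1 (322 ± 44.3 per kilobase) came before SMOX (257 ± 29.7) and OAZ2 (201 ± 5.9). By the longest coding transcript AMD1 (1381 ± 43.3) came before SMS (1272 ± 56.5) and AZIN1 (1160 ± 18.8).

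Ratios of members inside a library do not depend on its size factor. SRM per SMS, both per kilobase, was 1.92 and 1.86 in shcontrol but 0.636 and 0.592 in shBDH1. So the transcript of spermidine synthase exceeded that of spermine synthase in both controls and was lower than it in both knockdown libraries, with the ratio at 0.325 of its control value. SAT1 per SRM was 0.0655 and 0.0774 in shcontrol and 0.136 and 0.178 in shBDH1, 2.19-fold higher. SAT1 itself did not rise (log2 fold change -0.31, not called), while SRM fell (-1.44). ODC1 per OAZ2, a pair chosen after the values were seen because OAZ1 has no row, was 15.8 and 14.7 in shcontrol and 13.5 and 12.3 in shBDH1. PAOX per SMOX was 4.63-fold higher in shBDH1, on the few PAOX reads above. The groups overlapped in none of these 4 ratios. Of all single genes tested, 69.0% did not overlap either, and no such share was computed for ratios. With 2 libraries against 2 the exact two-sided permutation test cannot go below p = 0.33, which each of the ratios gave.

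**Figure D3:**
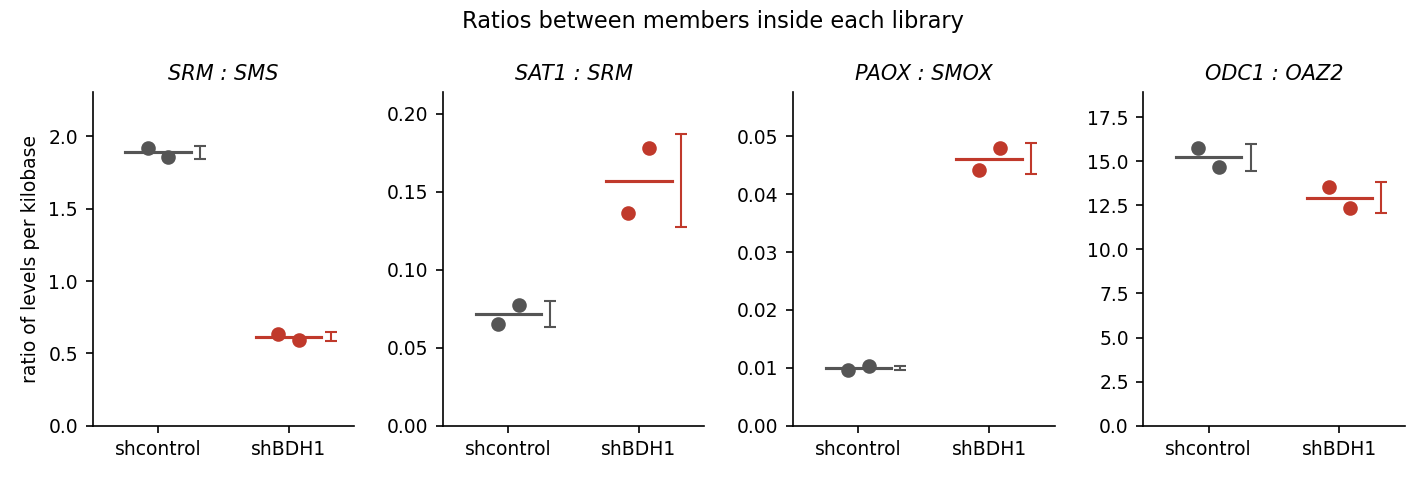
Ratio of levels per kilobase (y axis, from 0, a separate scale per pair) of 4 pairs of members in each library (points), with the group mean (line) and SD (bar, n = 2). SRM per SMS was 1.89 ± 0.05 in shcontrol and 0.61 ± 0.03 in shBDH1, and SAT1 per SRM lay higher in both shBDH1 libraries.

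Other genes around the pathway were taken as 5 lists of 42 genes in all, of which 37 had a row and 34 were tested. Of these 34, 13 fell and 5 rose, beside the 20.8% called lower and 20.3% called higher over all genes tested. The median log2 fold change was -0.05 against -0.01 over all genes tested. The same 20.8% and 20.3% stand beside the counts of each list below, and nothing is read from those counts as particular to a list.

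Of 9 tested genes that supply ornithine and arginine, 4 fell and 5 were not called. ASS1, which joins citrulline and aspartate on the way to arginine, had 2911 ± 28.4 normalized counts in shcontrol and 1703 ± 74.4 in shBDH1 (SD, n = 2 each) and fell (log2 fold change -0.77, limma adjusted p = 3.1e-11). SLC7A1, the main carrier of arginine and ornithine into cells, fell from 14691 ± 173 to 9586 ± 274 normalized counts (-0.62). ARG2, the mitochondrial arginase that makes ornithine, fell by 0.26 on the log2 scale, and ALDH18A1, which leads from glutamate to ornithine and proline, by 0.16. ARG2 shares 904 exon bases with VTI1B on the opposite strand, which was not called (-0.16), so its value is uncertain. Without the intensity trend ARG2 (adjusted p = 0.0742) and ALDH18A1 (adjusted p = 0.158) were not called by limma.

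The methionine list covers the making of S-adenosylmethionine, the substrate of AMD1, and the salvage of methylthioadenosine, the by-product of SRM and SMS. MTAP, a salvage gene on this list, had no row. Of 9 tested members, 3 fell and 1 rose. AHCY, which clears S-adenosylhomocysteine, fell (-0.60), from a mean ± SD of 3025 ± 12.5 normalized counts to 2001 ± 21.1 (n = 2 each). MAT2B, the regulatory subunit of S-adenosylmethionine synthetase, fell by 0.22, and the salvage enzyme MRI1 fell by 0.27 on the log2 scale with groups that overlapped. MRI1 shares 1078 exon bases with the antisense gene AC008686.1 (-0.25, not called) and lost its own call in 8 of 17 alternatives, among them those without shcontrol replicate 1 (-0.13) and without shBDH1 replicate 1 (-0.14), and MAT2B lost it without shcontrol replicate 2 (-0.16) and without the intensity trend. MAT1A, the synthetase known from liver, rose from 156 ± 6.31 to 297 ± 22.6 (0.92).

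Spermidine is also the donor for hypusine, a modified lysine found in the translation factor EIF5A. All 3 tested genes of this list were called, where 41.1% of all genes tested were, and nothing is read from so small a count. DHPS, the other gene of the list, had no row. DOHH, the hydroxylase of the last step, fell (-0.41), from a mean ± SD of 1003 ± 42.4 normalized counts to 755 ± 42.5 (n = 2 each) and EIF5A from 12606 ± 51.3 to 11249 ± 63.2 (-0.16). The related EIF5A2 rose from 265 ± 28.8 to 499 ± 30.6 (0.92). EIF5A shares 241 exon bases with GPS2 on the opposite strand, which fell by 0.27 on the log2 scale. Without the intensity trend EIF5A (adjusted p = 0.148) and DOHH (adjusted p = 0.0606) were not called by limma.

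Of 8 tested transport genes, 4 fell and 1 rose. SLC3A2, the heavy chain of several amino acid carriers that has also been linked to polyamine export, fell (-1.32), from a mean ± SD of 13474 ± 66.7 normalized counts to 5411 ± 79.1 (n = 2 each). ATP13A2, a lysosomal polyamine exporter, fell from 2020 ± 102 to 1324 ± 78.4 (-0.61), and SLC18B1, a vesicular polyamine transporter, from 987 ± 3.24 to 621 ± 7.94 (-0.67). ATP13A3, which takes up polyamines in the same family as ATP13A2, rose from 6030 ± 24.4 to 8237 ± 348 (0.45). ATP13A2 and ATP13A3 each share exon bases (189 and 198) with an antisense gene that moved the same way, AL049569.1 (-0.76) and LINC00884 (0.37), so their separate values are uncertain.

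In the list of other acetyltransferases and antizyme genes, 2 of 5 rose and 3 were not called. AZIN2, a second antizyme inhibitor, rose (0.65), from a mean ± SD of 182 ± 7.37 normalized counts to 286 ± 20.0 (n = 2 each), and NAT8L, which acetylates aspartate rather than polyamines, rose by 0.23 on the log2 scale. Among 7 alternatives in which NAT8L lost its call were those without shcontrol replicate 1 (0.25), shcontrol replicate 2 (0.21) or shBDH1 replicate 1 (0.14); AZIN2 lost its call without shBDH1 replicate 1 (0.58, limma adjusted p = 0.0531). SAT2 (0.20) and OAZ3 (-0.05), the latter an antizyme known from testis that shares 333 exon bases with MRPL9, were not called. SAT2 was 0.07 without shBDH1 replicate 2 and 0.33 without shBDH1 replicate 1.

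**Figure D4:**
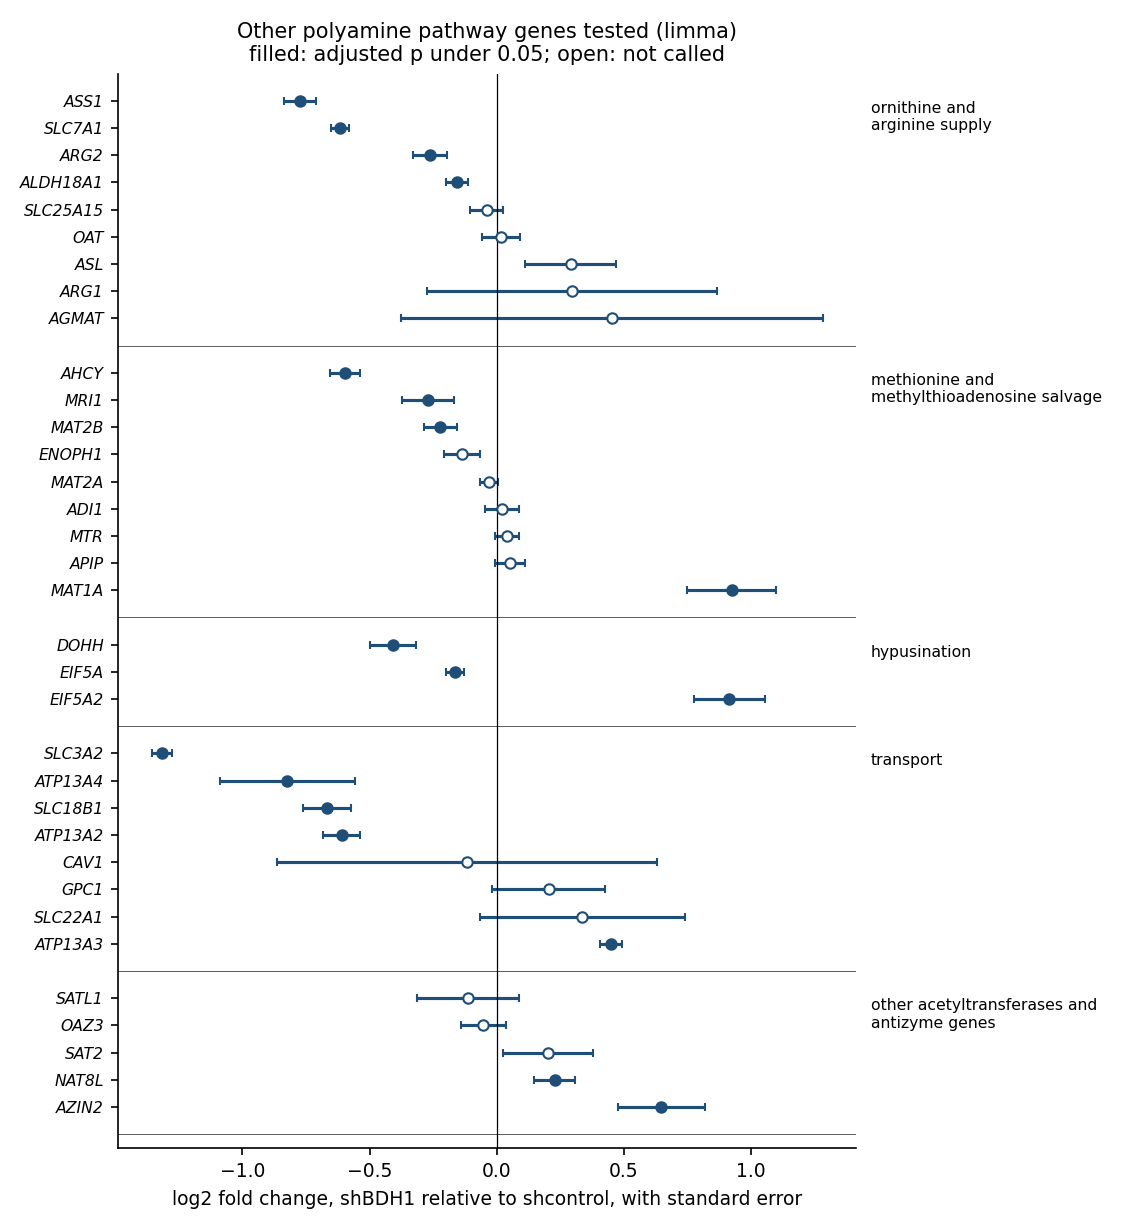
Log2 fold change of shBDH1 relative to shcontrol (x axis) with its standard error (bars) for the 34 tested genes of 5 lists around the pathway, filled where the limma adjusted p was under 0.05. The largest fall is SLC3A2 at -1.32, and the largest rises among called genes are MAT1A and EIF5A2 at 0.92.

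The series itself gave 28681511 to 29453383 whole reads per library after the authors' scaling was undone. BDH1, the target of the hairpin, had 1725 and 1911 normalized counts in shcontrol and 1221 and 1412 in shBDH1 (log2 fold change -0.47, limma adjusted p = 1.5e-05; adjusted p = 0.0834 without the intensity trend). All 14 listed T cell markers were present and tested, each with a mean of at least 169 normalized counts, and 9 rose and 3 fell. Over all genes tested, 20.3% were called higher and 20.8% lower, which stands beside each marker count here. Summed B cell markers were 220 and 220 in shcontrol against 686 and 666 in shBDH1, with 3 of 5 in the table, 2 tested and 1 called higher. Summed NK markers were 83 to 89 against 190 to 241, with 4 of 5 in the table, 3 tested and 2 called higher. Summed myeloid markers were 56 and 57 against 73 and 67 (4 of 5 in the table). Erythroid ones were 66 and 83 against 62 and 68 (1 of 5). Fibroblast and epithelial ones were 607 and 604 against 706 and 694 (2 of 6, with 2 tested and 1 called higher). No marker with a row was at 0 in all libraries. The part of these markers in the results above was not tested.

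**Figure D5:**
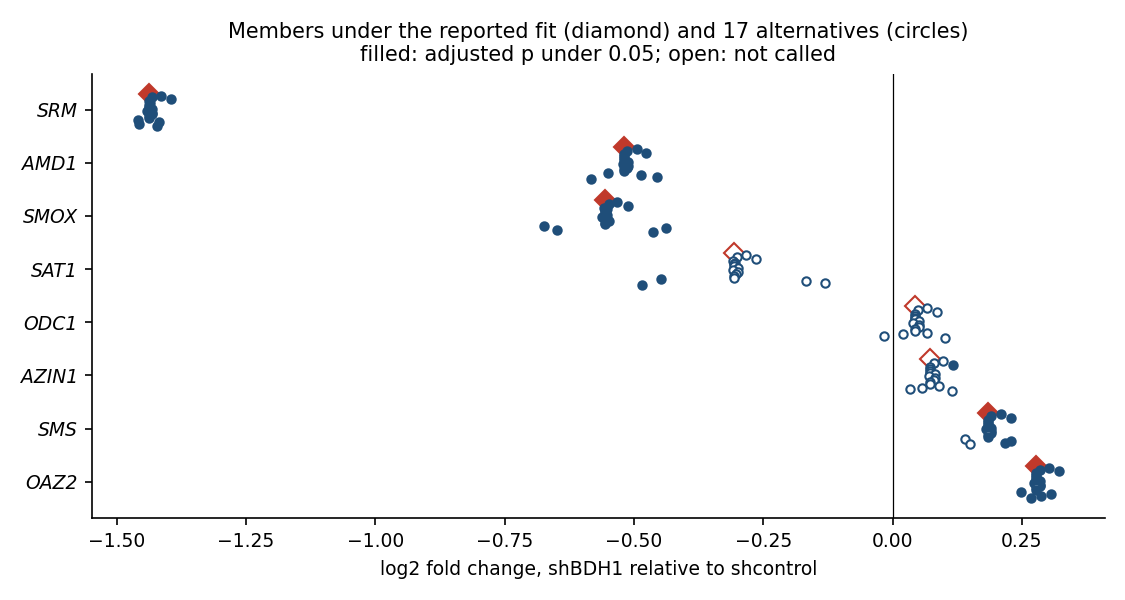
Log2 fold change (x axis) of the 8 tested members under the reported fit (red diamonds) and 17 alternative settings (blue circles), filled where the adjusted p was under 0.05. SRM (-1.46 to -1.39) and AMD1 (-0.58 to -0.46) were called in all 17 alternatives, while SMS (0.14 to 0.23) lost its call in 3.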

How the data were processed

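Values in the deposited table, 1 for each gene in each library, are a normalized signal that the authors made by dividing gene read counts by 1 size factor per library; this was read from the values, since 100.0% of those in each library were whole multiples of 1 step within 0.01 reads. Per the submitters' processing notes, FastQC 0.11.9, HISAT2 2.2.1 and build hg38 were used; neither counter nor annotation nor strand setting is given in the sources used here. Chi-square per degree of freedom was 3.71 and 4.98 within groups and 42.42 to 45.17 between them, so each pair of replicates differed by more than sampling noise. The table held 0 unused value columns.

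The 19301 genes whose mean was 10 or more were tested with limma and an intensity trend on log2(value + 1), a scale that understates the change of low genes, with Benjamini-Hochberg adjustment over all of them and a threshold of 0.05. Residual degrees of freedom were 2 and the median prior degrees of freedom 25.8. The variance of each gene was therefore drawn largely from other genes of like intensity. edgeR, DESeq2 and limma-voom on recovered reads, other scalings, filters and pseudocounts, a block for the replicate number and leaving out single libraries were alternatives. Where this left 1 library in a group, it was assumed to vary like the other group. As values and not raw counts were deposited, limma took the place of the count test. Fits were tested on simulated data. Positions and lengths come from GENCODE 29 (25010 of 25122 IDs matched; 21 symbols that had become dates were renamed by ID). Members and lists were chosen with earlier results of these data known. The named genes are all members, BDH1 and MYC, and up to 4 genes with the smallest p of each list; others are said to be chosen after their values were seen. Versions were limma 3.58.1, DESeq2 1.42.0 and edgeR 4.0.16 under R 4.3.3. Tables and plots used scipy 1.17.1, pandas 2.3.3, matplotlib 3.10.9 and numpy 2.4.6 under Python 3.11.15.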

Additional observations from a re-analysis of the deposited data

How the results depend on the processing

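Of 17 alternatives, all kept the direction of SRM, AMD1, SMOX, SMS, OAZ2, AZIN1, SAT1, MYC and BDH1; ODC1 turned to -0.016 without shBDH1 replicate 1 (limma adjusted p = 0.80) and was called in none. limma without the intensity trend, which called 1598 genes higher and 1246 lower in place of 3910 and 4020, called 0 members higher (1 at an unadjusted p under 0.05; 2 by edgeR and 2 by DESeq2) and 7 other pathway genes lower, and its adjusted p was 0.174 for SMS (0.18), 0.0739 for OAZ2 (0.28), 0.0776 for SMOX (-0.56) and 0.0834 for BDH1 (-0.47). Leaving out 1 library in turn gave 1 to 2 members higher and 3 to 4 lower, and 3 to 5 other pathway genes higher and 11 to 13 lower. The log2 fold changes then ranged from 0.14 to 0.23 for SMS, -0.48 to -0.13 for SAT1, -0.02 to 0.10 for ODC1, and -0.16 to 0.055 for OAZ3, which turned without shBDH1 replicate 1. AZIN1 was 0.12 with upper-quartile scaling. PAOX was 1.02 with a pseudocount of 5 and 1.61 by edgeR with no filter. The edgeR fit with no filter was chosen after seeing the data. The cause of these changes was not tested.

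With the replicate number as a block, 2 members were higher and 3 lower, and 5 and 13 other pathway genes; it changed no call of a member. The labels do not say that the numbers pair libraries, and the deviations of same-numbered libraries correlated at 0.001 across genes.

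Shcontrol levels per kilobase by the longest transcript were 3168 for ODC1, 1001 for AMD1, 3065 for SRM, 1272 for SMS, 201 for OAZ2, 1160 for AZIN1, 322 for SAT1, 2.5 for PAOX and 257 for SMOX. By the longest coding transcript, chosen after seeing the data, AMD1 was 1381, OAZ2 739 and SAT1 343, and the other 6 were as by the longest transcript. The few reads of PAOX limit what can be said of it; it had values in 8 alternatives, and the ratios planned with OAZ1 were not run.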

Other observations

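Within 3 pairs of related genes around the pathway, the gene with the lower level gained on its relative in shBDH1; the pairs were chosen after their values were seen, for this pattern, and other related genes went other ways: ATP13A2 and ATP13A4 fell by 0.61 and 0.82 on the log2 scale while ATP13A3 rose by 0.45. EIF5A2 per EIF5A, per kilobase, was 0.00979 and 0.0113 in shcontrol and 0.0234 and 0.0213 in shBDH1, 2.12-fold higher. MAT1A per MAT2A, the liver form and the common form of the S-adenosylmethionine synthetase subunit, was 0.0154 and 0.0141 against 0.0305 and 0.0268, 1.94-fold higher. MAT2A itself stood at 12850 ± 311 and 12593 ± 172 normalized counts (SD, n = 2 each). It shares 558 exon bases with GGCX on the opposite strand (-0.05, not called), and the part of shared reads was not tested. AZIN2 per AZIN1 was 0.0312 and 0.0338 against 0.0496 and 0.0475, 1.49-fold higher. The groups did not overlap in these 3 ratios, as for 69.0% of all single genes tested, and no such share was computed for ratios. The exact two-sided permutation p was 0.33 for each, the smallest that 2 libraries against 2 allow. In each pair the gene of lower level stayed far below its relative in all 4 libraries.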
